A study of Bos taurus with 9 samples.

Results

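Glutathione peroxidases and their companion antioxidant genes were followed in RNA-seq libraries of bovine uterine gland fragments grown in 3D culture. The set holds 10 of the 20679 genes in the deposited tables: GPX1, GPX2, GPX3, GPX4, TXNRD1, GCLC, GCLM, SLC7A11, SOD2 and HMOX1. Of these, 9 were found by symbol. No gene in the tables carries the symbol SOD2, and 1 gene was matched to it by position (below). The 10 genes were selected on their measured levels in these same libraries, so their values are a description and no direction among them is independent evidence.

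Uterine gland fragments were isolated enzymatically from abattoir uteri of cattle and embedded in Matrigel, a basement membrane gel. All groups shared this matrix and a DMEM/F12 medium with insulin, transferrin, sodium selenite, ascorbic acid and BSA, and all were harvested on day 5. The CYST group had no EGF and formed cysts, the MAT group had EGF and formed gland-like tubes (UG-LIKE structures), and the MAT + COL group had EGF with type I collagen added to the Matrigel. Each group had 3 libraries, numbered 1 to 3, and MAT libraries served both the comparison with CYST and the comparison with MAT + COL.

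Total counts per library ran from 6568968 to 17948600, with a median of 16665013. Libraries with the same number deviated together in every pair of groups, which is why replicate numbers are given beside the values. The labels call the material epithelial cells. Epithelial markers were high in all 9 libraries, with all 8 of 8 found and a summed TPM (a transcript's share of its library, corrected for gene length) of 17920.1 to 44458, and none was at 0 in all libraries. Stromal markers were not at 0 either: all 9 of 9 were found, with a summed TPM of 1208 to 4878, and decorin (DCN) ran from 236 to 1932 TPM. The corresponding sums were 68.3 to 159 TPM for 7 immune markers, 8.6 to 27.5 TPM for 5 endothelial markers and 24.3 to 83.8 TPM for 4 smooth muscle markers. In these bulk libraries, fewer cells of a type and less RNA per cell cannot be told apart.

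Glutathione peroxidases reduce hydrogen peroxide and lipid peroxides with glutathione as the electron donor. GPX1 is the common cytosolic enzyme, GPX2 the epithelial form known from the gut, GPX3 the secreted form known from plasma and kidney, and GPX4 the enzyme that repairs peroxidized membrane lipids. All of these carry selenocysteine, so their synthesis needs selenium, which the medium supplied as selenite. Glutathione itself is made from cysteine, which SLC7A11 brings into the cell as cystine, by glutamate-cysteine ligase (GCLC with its modifier subunit GCLM). TXNRD1, also a selenoenzyme, keeps thioredoxin reduced, SOD2 converts superoxide in mitochondria, and HMOX1 degrades heme. Several of these genes are known targets of the stress-responsive factor NRF2.

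GPX3 was the gene of the set that stood apart. It lies on chromosome 7 (62284795 to 62292961, plus strand, ARS-UCD2.0, ENSBTAG00000043553). Its level in the CYST libraries 1, 2 and 3 was 34.2, 31.5 and 20.3 TPM. In the MAT libraries it was 144, 169 and 146 TPM, and in the MAT + COL libraries 195, 199 and 126 TPM. Every library with EGF lay above every library without it, while the MAT and MAT + COL libraries overlapped. Group means were 28.6 ± 7.35 TPM in CYST, 153 ± 13.9 TPM in MAT and 174 ± 40.9 TPM in MAT + COL (SD, n = 3 each).

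Between libraries of the same number, GPX3 was 4.21-, 5.37- and 7.21-fold higher in MAT than in CYST, and 5.71-, 6.33- and 6.23-fold higher in MAT + COL than in CYST. MAT + COL against MAT gave 1.36-, 1.18- and 0.864-fold, so library 3 went the other way from libraries 1 and 2. These values rested on 134 to 313 reads per CYST library and 573 to 2112 reads per library with EGF. In edgeR's quasi-likelihood test over all 12074 genes tested, GPX3 had a Log2FC of 2.43 (SE 0.20, 95% interval 1.96 to 2.90, adjusted p = 0.00709) in MAT minus CYST, and it ranked 4 by p-value. Its edgeR Log2FC in MAT + COL minus CYST was 2.54 (SE 0.22, 95% interval 2.02 to 3.07, adjusted p = 0.0139). Between MAT + COL and MAT it was 0.09 (95% interval -0.34 to 0.52).

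In edgeR without a block, the GPX3 call depended on single libraries although the size of its difference did not. Without CYST library 2, the edgeR adjusted p in MAT minus CYST was 0.0559 at a Log2FC of 2.48. For MAT + COL minus CYST, the edgeR adjusted p was 0.0633 without CYST library 1, 0.0758 without CYST library 2, 0.0628 without MAT + COL library 1 and 0.085 without MAT + COL library 2, with Log2FC between 2.40 and 2.65. Without CYST library 2, the count of all called genes also fell, from 216 to 5 in MAT minus CYST and from 186 to 4 in MAT + COL minus CYST. With the replicate number as a block and no library left out, the edgeR adjusted p of GPX3 was 0.00164 and 0.00816 in these comparisons. The summed TPM of the epithelial markers moved in the same direction as GPX3: it was 17920.1 to 19263 in CYST, 28502 to 44458 in MAT and 29566 to 39573 in MAT + COL. Most of that sum came from KRT8 (mean 8314 TPM in CYST and 15490.3 in MAT) and KRT19 (7751 and 17274). In MAT minus CYST, 7 of 8 markers had a positive edgeR Log2FC and 1 a negative one, with a median of 0.64. The mean of CLDN4 was 852 TPM in CYST and 709 in MAT, and that of KRT18 483 and 544. Of the 8 epithelial markers, 0 passed edgeR's adjusted p of 0.05 in MAT minus CYST, and 3 (KRT19, KRT8 and EPCAM) did in the blocked fit, which takes out differences between replicate numbers. Expressed per 1000 TPM of these markers, a ratio chosen after the values were seen, GPX3 was at 1.77, 1.75 and 1.13 in CYST, 3.23, 4.97 and 5.13 in MAT and 5.83, 6.74 and 3.20 in MAT + COL. The groups with EGF still lay above CYST, by 2.87-fold for MAT and 3.39-fold for MAT + COL on the means of that ratio, against 5.35-fold and 6.08-fold on the mean TPM. The part of the epithelial share in the GPX3 difference was not tested.

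GPX1 was the most abundant of the set, with a mean over the 9 libraries that ranked 116 of 20679 genes. It lies on chromosome 22 (50752555 to 50754485, plus strand, ENSBTAG00000054195). Its level was 789, 1048 and 1358 TPM in CYST libraries 1 to 3, 1016, 985 and 1130.4 TPM in MAT, and 707, 898 and 911 TPM in MAT + COL. The CYST libraries spanned nearly the whole range, and all MAT + COL libraries lay below all MAT libraries. Means were 1065 ± 285, 1044 ± 76.7 and 838 ± 114 TPM (SD, n = 3 each). Its edgeR Log2FC was -0.07 in MAT minus CYST (95% interval -0.73 to 0.58) and -0.39 in MAT + COL minus MAT (95% interval -0.87 to 0.09).

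GPX2 ranked 157 by mean TPM. It lies on chromosome 10 (77069493 to 77072951, minus strand, ENSBTAG00000068964), where CHURC1 on the plus strand overlaps it. CHURC1 had up to 2323 reads in a library and GPX2 up to 7743, and the strand setting of the counting is not given in the sources used here, so reads in the shared stretch cannot be assigned with certainty. GPX2 was at 954, 861 and 727 TPM in CYST, 717, 508 and 1079 TPM in MAT, and 552, 479 and 1159 TPM in MAT + COL. Library 3 was the lowest of the CYST group but the highest of both groups with EGF. The group means of 847 ± 114, 768 ± 289 and 730.1 ± 373 TPM (SD, n = 3 each) therefore differed by less than the spread within the EGF groups.

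GPX4 ranked 499 and lies on chromosome 7 (43588167 to 43591099, plus strand, ENSBTAG00000053003). Its level was 419.6, 348 and 330.3 TPM in CYST, 292, 223 and 322 TPM in MAT, and 241, 230.4 and 289 TPM in MAT + COL. Every library with EGF lay below every CYST library, although in library 3 the gap between MAT and CYST was small (0.974-fold). Means were 366 ± 47.3, 279 ± 50.5 and 253 ± 31.3 TPM (SD, n = 3 each). The edgeR Log2FC was -0.40 in MAT minus CYST (SE 0.21, adjusted p = 0.324) and -0.59 in MAT + COL minus CYST (SE 0.19, adjusted p = 0.135), neither past the threshold. Over the 9 libraries, GPX3 and GPX4 had the most negative correlation of any pair in the set (Pearson's r = -0.81, Spearman's rho = -0.82 on log2 CPM), a description over libraries that share groups and replicate numbers.

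**Figure D1:**
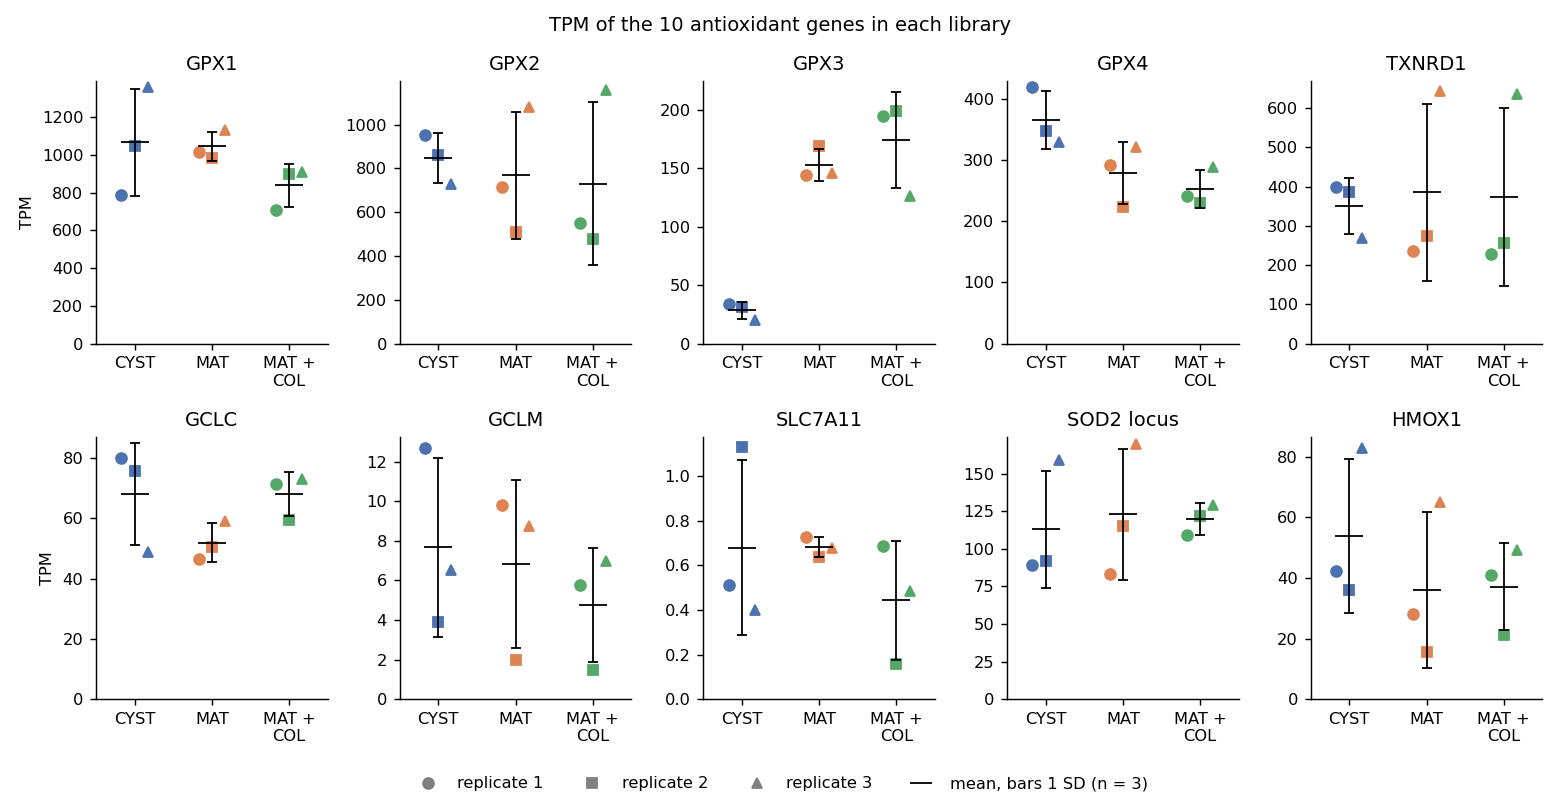
TPM of each of the 10 genes by culture group, on linear axes that start at 0 and differ between panels. Points are single libraries with the replicate number as symbol, and bars are the mean with 1 SD (n = 3). GPX3 is the only panel in which all libraries with EGF lie above all CYST libraries, and GPX4 the only panel in which all lie below.

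The make-up of glutathione peroxidase transcripts differed between the groups in the share of GPX3, and less in that of GPX4. TPM is a per-length measure, so the 8 GPX genes of the tables can be summed. The sum was 1781 to 2729.5 TPM per library, with means of 2380.1 ± 118 in CYST, 2306 ± 393 in MAT and 2066 ± 409 in MAT + COL (SD, n = 3 each). GPX3 took 1.51, 1.32 and 0.813% of it in CYST libraries 1 to 3, 6.42, 8.66 and 5.36% in MAT, and 11, 10.6 and 4.99% in MAT + COL. Its share in all libraries with EGF was above that in all CYST libraries, yet it remained a minor part of the sum. GPX1 took 34.9 to 54.4%, GPX2 25.5 to 45.7% and GPX4 11.4 to 18.6%.

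The other GPX genes lay below GPX1, GPX2 and GPX4 in every library, but GPX7 had a higher mean than GPX3 in CYST (51.8 against 28.6 TPM). GPX7, a peroxidase of the endoplasmic reticulum, was at 49.5, 74.2 and 31.7 TPM in CYST, 63.1, 63.0 and 31.1 TPM in MAT and 76.8, 68.4 and 30.0 TPM in MAT + COL, with library 3 the lowest of each group. GPX8, its close relative, was at 14.9, 19.4 and 29.9 TPM in CYST, 6.75, 3.98 and 21.0 TPM in MAT and 9.04, 8.48 and 19.9 TPM in MAT + COL, with library 3 the highest of each group. GPX5 and GPX6, known from the epididymis and the olfactory epithelium, did not exceed 0.122 and 0.37 TPM in any library.

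**Figure D2:**
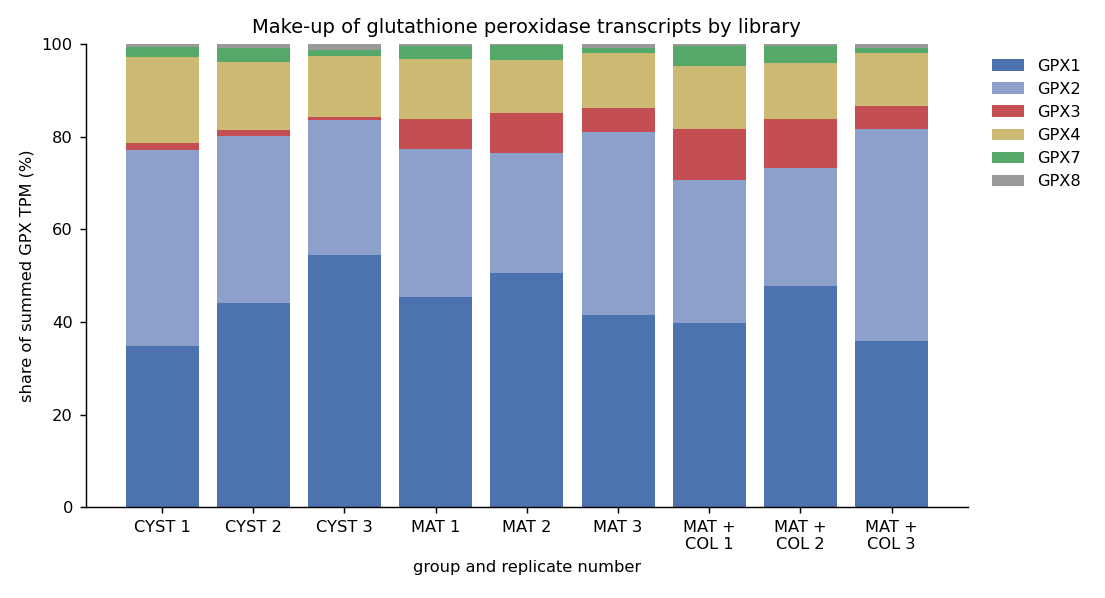
Share of each glutathione peroxidase gene in the summed TPM of the 8 GPX genes, in percent, for each library. GPX5 and GPX6 are too low to be drawn. GPX3 takes 0.813 to 1.51% in CYST and 4.99 to 11% in the libraries with EGF, and GPX1 and GPX2 make up most of every bar.

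TXNRD1 followed GPX2 rather than GPX3. It lies on chromosome 5 (67898909 to 67961971, plus strand, ENSBTAG00000013912) and was at 398, 385 and 268 TPM in CYST, 236, 274 and 644 TPM in MAT, and 229, 257 and 635 TPM in MAT + COL. As for GPX2, library 3 was the lowest in CYST and by far the highest in both groups with EGF. The fold of MAT over CYST was accordingly 0.593 and 0.712 in libraries 1 and 2 and 2.40 in library 3. Means were 350.5 ± 71.5, 385 ± 225 and 374 ± 227 TPM (SD, n = 3 each). TXNRD1 and GPX2 had the highest correlation of any pair in the set over the 9 libraries (r = 0.88, rho = 0.88), against r = -0.13 for TXNRD1 and GPX3, again as a description. SRXN1, the sulfiredoxin that reactivates peroxiredoxins, is named here after its values were seen: it was at 73.0, 143 and 69.7 TPM in CYST, 85.4, 113 and 217 TPM in MAT and 54.3, 76.7 and 216 TPM in MAT + COL, with library 3 lowest in CYST and highest with EGF.

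The genes of glutathione synthesis differed in level by orders of magnitude. GCLC, the catalytic subunit, lies on chromosome 23 (6982638 to 7026837, plus strand, ENSBTAG00000015571). It was at 80.2, 75.6 and 48.7 TPM in CYST, 46.5, 50.4 and 59.2 TPM in MAT, and 71.5, 59.6 and 73.1 TPM in MAT + COL. All MAT + COL libraries lay just above all MAT libraries, and each was higher than its same-numbered MAT library (1.54-, 1.18- and 1.24-fold). Means were 68.2 ± 17.0, 52.0 ± 6.53 and 68.1 ± 7.42 TPM (SD, n = 3 each), and the edgeR Log2FC of MAT + COL minus MAT was 0.31 (SE 0.19, 95% interval -0.14 to 0.75).

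GCLM, the modifier subunit that raises the ligase's affinity for its substrate, was far lower. It lies on chromosome 3 (49581804 to 49603138, plus strand, ENSBTAG00000076086) and was at 12.7, 3.87 and 6.50 TPM in CYST, 9.78, 1.97 and 8.74 TPM in MAT and 5.78, 1.49 and 6.97 TPM in MAT + COL. Library 2 was the lowest of every group, with 65 to 158 reads against 160 to 286 in the other libraries. In each number, MAT + COL was below MAT (0.591-, 0.758- and 0.798-fold). Glutathione reductase (GSR), named after its values were seen, showed the same low library 2, at 29.9, 24.3 and 20.3 TPM in CYST, MAT and MAT + COL, against 44.0 to 93.5 TPM in the other 6 libraries.

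SLC7A11, the cystine transporter, was close to the limit of detection. It lies on chromosome 17 (19415242 to 19502260, plus strand, ENSBTAG00000034075), and its level was 0.514, 1.13 and 0.399 TPM in CYST, 0.730, 0.638 and 0.677 TPM in MAT and 0.687, 0.157 and 0.485 TPM in MAT + COL. These values rested on 12 to 81 reads per library, and the groups overlapped in every comparison. Its partner SLC3A2, the heavy chain shared by several amino acid transporters, was at 307, 269.6 and 221 TPM in CYST, 198, 153 and 116 TPM in MAT and 167, 138 and 134 TPM in MAT + COL. SLC3A2 thus lay below CYST in every library with EGF. Its edgeR Log2FC was -0.78 in MAT minus CYST (SE 0.22, adjusted p = 0.0965, and 0.0307 with the replicate block). In MAT + COL minus CYST it fell by 0.93 on the log2 scale (edgeR, SE 0.15, adjusted p = 0.0392, and 0.0297 with the block). The call without the block was lost in 6 of 6 fits with 1 library left out.

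SOD2 and HMOX1 varied with the replicate number more than with the culture. The gene ENSBTAG00000006523 lies on the minus strand of chromosome 9 (95954731 to 95966326) and covers RefSeq's SOD2 (95955349 to 95965385). RefSeq's SOD2 makes up 86.6% of its length, and no other gene of the tables overlaps it. It was at 89.4, 91.9 and 159 TPM in CYST, 83.3, 115 and 170 TPM in MAT and 109, 122 and 129 TPM in MAT + COL. Library 3 was the highest of each group. Means were nearly level, at 113 ± 39.2, 123 ± 43.8 and 119.9 ± 10.5 TPM (SD, n = 3 each).

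HMOX1 lies on chromosome 5 (73623453 to 73630537, plus strand, ENSBTAG00000015582). It was at 42.4, 35.9 and 83.0 TPM in CYST, 28.0, 15.4 and 65.0 TPM in MAT and 40.8, 21.3 and 49.2 TPM in MAT + COL. In every group library 3 was the highest and library 2 the lowest. In 3 of 3 numbers the MAT library and the MAT + COL library were each below the CYST library. The edgeR Log2FC of MAT minus CYST was -0.63 (SE 0.60, adjusted p = 0.601). It was -0.01 without CYST library 3 and -1.43 without MAT library 3, the ends of its range when 1 library was left out. The blocked fit gave -0.73 with an SE of 0.21 (edgeR, adjusted p = 0.0653), still not past the threshold. Stromal markers were also highest in library 3 of each group, with a summed TPM of 4878 in CYST, 3798 in MAT and 4315 in MAT + COL against 1208 to 3101 in the other libraries. The summed immune markers were highest there too, at 97.7, 159 and 138 TPM against 68.3 to 90.9 TPM. Most of that sum came from LCP1 (33.8 to 110.4 TPM) and CD14 (13.2 to 45.2 TPM). PTPRC did not exceed 1.19 TPM, and 2 of the 7 immune markers stayed under 1 TPM in all libraries. Between MAT and CYST, 8 of 9 stromal markers had a negative Log2FC, with a median of -0.65 and 0 called by edgeR. The blocked fit gave a median of -0.77, with DCN called lower and VIM higher. The part of stromal and immune cells in the HMOX1 difference, and in the HMOX1, SOD2, GPX2 and TXNRD1 values of library 3, was not tested.

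Splitting the variation of log2 CPM over the 9 libraries shows the same division of the set. For GPX3 the culture group took 97.4% of the sum of squares and the replicate number 1.56%. GPX4 (63.1% and 27.1%) and GCLC (49.2% and 4.22%) were the next by group. The replicate number took 80.5% for GCLM, 79.8% for SOD2 and 76.4% for HMOX1, against group shares of 13.3%, 0.799% and 17.2%. In all, 6 of 10 genes had a larger share for the number than for the group, and 52.1% of 12858 genes tested did. The medians over those genes were 29.5% for the group and 32.4% for the number.

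**Figure D3:**
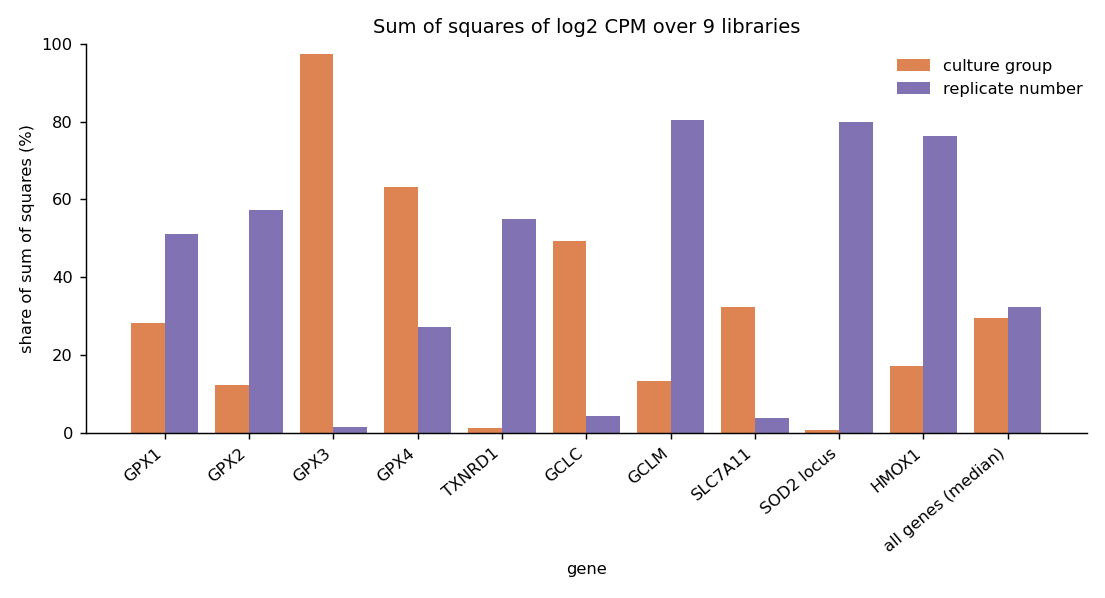
Share of the sum of squares of log2 CPM over the 9 libraries, in percent, taken by the culture group and by the replicate number, for each of the 10 genes and as the median of all 12858 genes tested. GPX3 is nearly all group (97.4%), while GCLM, SOD2 and HMOX1 are mostly replicate number (76.4 to 80.5%).

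Across the set, EGF was accompanied by a change of 1 gene past the threshold. In MAT minus CYST, 1 of 10 genes (GPX3) was called higher and 0 lower by edgeR at an adjusted p under 0.05, where 1.79% of all 12074 genes tested were called (0.845% higher and 0.944% lower). The other 9 had Log2FC of -0.63 to 0.16 and edgeR adjusted p of 0.324 to 0.986. In MAT + COL minus CYST, which shares the CYST libraries, 1 of 10 (GPX3) was called higher and 0 lower, where 1.49% of 12509 genes were called (0.672% higher and 0.815% lower). The other 9 had Log2FC of -0.75 to 0.08 and edgeR adjusted p of 0.135 to 0.975. Since the genes were selected on these contrasts, nothing is read from those counts.

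With the study's criteria for DEGs put on the edgeR fit, GPX3 also passed in both comparisons (adjusted p under 0.05, Log2FC above 1 or below -1, TPM above 1 in each library). So did 1.45% of genes in MAT minus CYST and 1.13% in MAT + COL minus CYST. These shares are not the study's own, which came from another analysis, and the study reported no comparison of MAT + COL with CYST. At an adjusted p under 0.05, the replicate block gave the same single call in both comparisons, with 10.6% and 5.26% of genes called, and so did DESeq2, with 8.01% and 9.13%. The median Log2FC of the 10 genes was -0.11 in MAT minus CYST and -0.34 in MAT + COL minus CYST, against 0.01 and 0.04 over all genes tested.

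Collagen I changed no gene of the set past the threshold. In MAT + COL minus MAT, 0 of 10 genes were called by edgeR, where 0.0% of 12470 genes were called in either direction. The Log2FC of the set ran from -0.71 (SLC7A11) to 0.31 (GCLC), with a median of -0.13 against 0.00 over all genes. At an unadjusted p under 0.05, edgeR called 0 of the 10 genes and 51 genes in all (0.409%), and DESeq2 called 0 of the 10 and 81 genes in all (0.52%), with 0 after adjustment. With the replicate block, 3 of the 10 were under an unadjusted p of 0.05 in edgeR, as were 4.96% of genes. These were GPX1 (Log2FC -0.40), GCLM (-0.58) and GCLC (0.31), and their edgeR adjusted p was 0.955. Without the block, the 95% interval reached from 0.791- to 1.44-fold for GPX3, from 0.91- to 1.68-fold for GCLC and from 0.203- to 2.16-fold for GCLM. The block, which takes out differences between replicate numbers, gave narrower intervals. They were 0.856- to 1.3-fold for GPX3, 1.03- to 1.49-fold for GCLC and 0.481- to 0.935-fold for GCLM. None of these intervals is adjusted for the number of genes tested.

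Groups that did not overlap in TPM gave a wider count of the same kind. In each of the 3 comparisons, 1 of the 10 genes was higher and 1 lower without overlap: GPX3 and GPX4 in both comparisons with CYST, and GCLC and GPX1 in MAT + COL minus MAT. Among all genes tested, 23.7% did not overlap in MAT minus CYST (11.9% higher, 11.8% lower), 24.7% in MAT + COL minus CYST (14.3% higher, 10.3% lower) and 3.57% in MAT + COL minus MAT (2.75% higher, 0.818% lower).

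**Figure D4:**
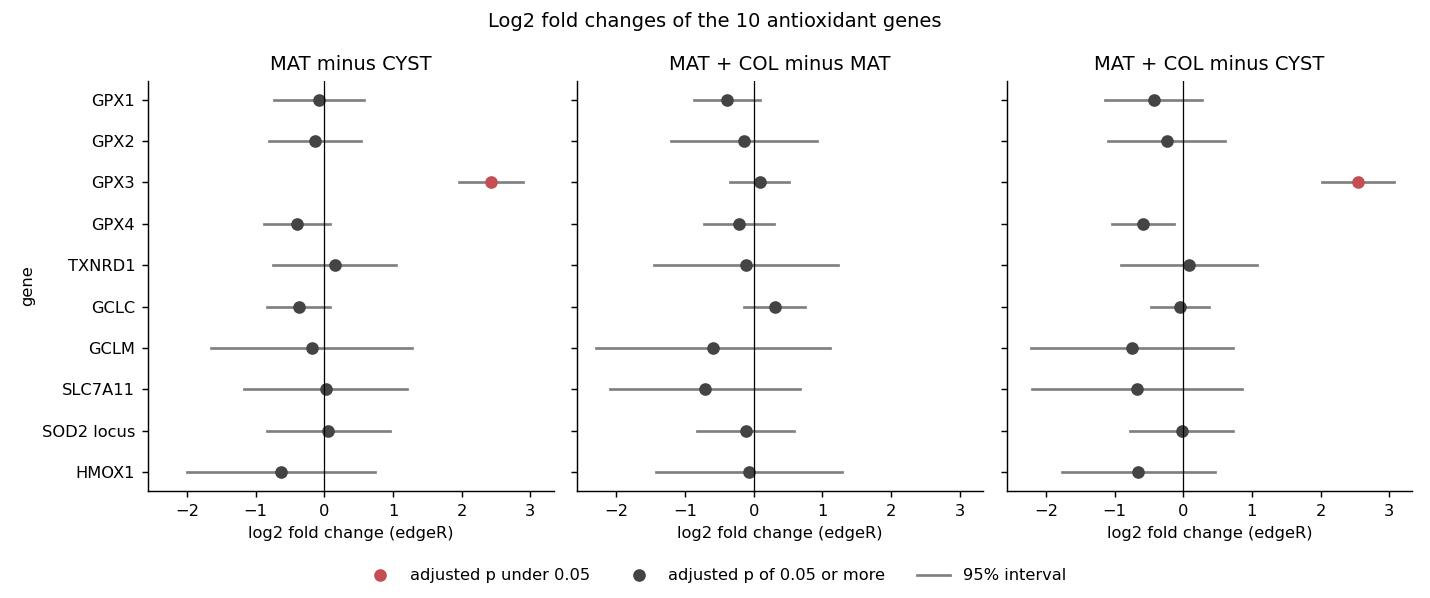
edgeR log2 fold change of each of the 10 genes in the 3 comparisons, with its 95% interval, from the fit without the replicate block. Only GPX3 in the comparisons of MAT and of MAT + COL with CYST (2.43 and 2.54) has an adjusted p under 0.05, and the widest intervals belong to GCLM, HMOX1, SLC7A11 and TXNRD1.

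The genes whose pattern over the 9 libraries was most like that of GPX3, among 11456 compared, were UCP2 (r = 0.986), PPP2R5A (r = 0.983) and CCDC152 (r = 0.982). UCP2, an uncoupling protein of the mitochondrial inner membrane, was at 126 ± 23.0 TPM in CYST, 274 ± 14.1 TPM in MAT and 287 ± 11.1 TPM in MAT + COL (SD, n = 3 each). PPP2R5A, a regulatory subunit of protein phosphatase 2A, was at 40.3 ± 10.4, 105 ± 7.55 and 98.2 ± 15.1 TPM. CCDC152 was low, at 1.91 ± 0.608, 8.08 ± 1.23 and 11.1 ± 2.39 TPM, with 10 to 161 reads per library. On chromosome 20 it overlaps the selenium carrier SELENOP on the opposite strand by 621 bases, so some of its reads may belong to SELENOP or the reverse. All of these correlations are over libraries that share groups and replicate numbers. The 3 genes most like SLC7A11 were POLR3C (r = 0.899), GMPPA (r = 0.893) and TMEM241 (r = 0.868), and in counts as sparse as those of SLC7A11 this is no finding.

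Beyond the set, 9 lists of related genes held 128 genes, of which 121 were found in the tables and 104 were tested in MAT minus CYST. By edgeR, 1 of these 104 rose and 2 fell, where 0.845% and 0.944% of all genes did. The counts in MAT + COL minus CYST were 0 of 104 up and 4 down (SLC3A2, TKT, LRP2 and SELENOI), where 0.672% of all genes rose and 0.815% fell. Each of these 4 calls was lost in 5 or 6 of the 6 fits with 1 library left out, which had no block. With the block and no library left out, all 4 were called (edgeR adjusted p = 0.0297 for SLC3A2, 0.0327 for TKT, 0.0286 for LRP2 and 0.0378 for SELENOI). With the replicate block the counts were 5 up and 10 down of 104 in MAT minus CYST, where 4.9% of all genes rose and 5.67% fell. With the block in MAT + COL minus CYST they were 1 up and 10 down, where 2.68% of all genes rose and 2.58% fell. In MAT + COL minus MAT, 0 of 105 were called with or without the block.

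Among 21 tested genes of selenoproteins and selenium handling, 1 rose and 2 fell in MAT minus CYST, with a list median Log2FC of -0.28. SELENOW, a small selenoprotein of muscle and other tissues, was at 68.3, 90.0 and 72.1 TPM in CYST, 227, 174 and 138 TPM in MAT and 188, 162 and 124 TPM in MAT + COL. It rose in MAT minus CYST, with a Log2FC of 1.21 (edgeR, SE 0.23, adjusted p = 0.0462). The endocytic receptor LRP2, which takes up selenoprotein P among many ligands, was at 9.57, 9.0 and 2.51 TPM in CYST, 0.584, 0.875 and 1.22 TPM in MAT and 1.51, 1.06 and 1.09 TPM in MAT + COL. All its libraries with EGF lay below all CYST libraries, and it fell by 2.90 on the log2 scale in MAT minus CYST (edgeR, SE 0.49, adjusted p = 0.0403).

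SELENOI, an enzyme of phospholipid synthesis and the other gene that fell, was at 22.4, 26 and 18.2 TPM in CYST, 9.75, 13.4 and 8.74 TPM in MAT and 13.4, 12.1 and 11.9 TPM in MAT + COL. It fell by 1.07 on the log2 scale in MAT minus CYST (edgeR, SE 0.21, adjusted p = 0.0495), close to the threshold. SELENOP, named after its values were seen, was at 72.2, 23.1 and 74.8 TPM in CYST, 187, 146 and 118 TPM in MAT and 197, 177 and 66.7 TPM in MAT + COL. Its edgeR Log2FC in MAT minus CYST was 1.34 (SE 0.46, adjusted p = 0.153), and 1.54 with the block (adjusted p = 0.0472). The selenoproteins SELENOW and SELENOI thus moved in opposite directions in the same libraries. Without the block, the calls of SELENOW, SELENOI and LRP2 were thin. When 1 library was left out, SELENOW and SELENOI were lost in 6 of 6 fits, and LRP2 in 5 of 6, being kept without CYST library 3. In those fits Log2FC stayed between 1.07 and 1.35 for SELENOW, -1.26 and -0.95 for SELENOI and -3.26 and -2.59 for LRP2. The count of all called genes, 216, also moved there, to between 5 and 267. With the block and no library left out, each was called (edgeR adjusted p = 0.0226 for SELENOW, 0.0147 for SELENOI and 0.0192 for LRP2).

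Of the 11 thioredoxin and peroxiredoxin genes tested, 0 were called in MAT minus CYST, and 1 rose with the block. That gene was TXNIP, the thioredoxin-binding protein, at 84.4, 223 and 174 TPM in CYST, 466, 607 and 867 TPM in MAT and 470.4, 649 and 615 TPM in MAT + COL. Every library with EGF lay above every CYST library, and its edgeR Log2FC was 2.00 (SE 0.41, adjusted p = 0.0535, and 0.0038 with the block). Peroxiredoxin 1 (PRDX1), chosen after its values were seen, was more abundant than any gene of the set, with means of 1569.8 ± 26.9, 1563 ± 198 and 1598 ± 336 TPM (SD, n = 3 each), and its edgeR Log2FC was -0.02.

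Of the 14 genes for superoxide, peroxide, heme and quinone metabolism, 0 were called in MAT minus CYST, and 2 (SOD3 and NQO1) fell with the block. SOD3, the extracellular superoxide dismutase, was at 13.4, 27.8 and 22.0 TPM in CYST, 3.04, 7.47 and 9.02 TPM in MAT and 3.75, 11 and 9.72 TPM in MAT + COL. Its edgeR Log2FC was -1.69 (SE 0.44, adjusted p = 0.0843, and 0.00488 with the block). Its libraries with EGF all lay below the CYST libraries. Stromal markers had a median Log2FC of -0.65 in the same comparison, and their part in the SOD3 difference was not tested.

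Of the 10 genes for NADPH supply, on which glutathione and thioredoxin reductases depend, 7 had a negative Log2FC in MAT minus CYST and the list median was -0.32. Over all 12074 genes tested, 5937 had a negative Log2FC. By edgeR 0 of the list were called without the block, where 1.79% of all genes were. With it, 4 (ME1, MTHFD2, TKT and IDH1) fell, where 5.67% of all genes did. The list was written with earlier results of these data known, so nothing is read from these counts. MTHFD2, of mitochondrial folate metabolism, was at 54.2, 40.6 and 27.7 TPM in CYST, 20.0, 13.2 and 17.4 TPM in MAT and 12.5, 9.61 and 18.8 TPM in MAT + COL. Its edgeR Log2FC was -1.27 (SE 0.26, adjusted p = 0.0545, and 0.0147 with the block).

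Of 11 glutathione transferase genes tested, 0 were called, and with the block 1 rose, GSTP1, at 7.39, 7.71 and 10.7 TPM in CYST against 27.4, 15.7 and 38.5 TPM in MAT and 14.5, 14.7 and 38.3 TPM in MAT + COL (edgeR Log2FC in MAT minus CYST 1.63, adjusted p = 0.0951, and 0.0252 with the block). Of 13 genes for glutathione synthesis and recycling, 0 were called without the block and SLC3A2 fell with it. Of 12 genes of NRF2 and its partners, 0 were called either way. Their smallest p belonged to NFE2L1, an NRF2 relative, at 99.7 ± 22.2 TPM in CYST and 124 ± 17.4 TPM in MAT (SD, n = 3 each; edgeR Log2FC 0.31, adjusted p = 0.398). NRF2 itself (NFE2L2) and its inhibitor KEAP1, chosen after their values were seen, had edgeR Log2FC of -0.17 and -0.16 in MAT minus CYST. Of 10 oxidant-producing enzymes and subunits, 0 were called without the block. With it CYBA, the NADPH oxidase subunit, rose and MAOB, a monoamine oxidase, fell. MAOB was at 71.5, 33.8 and 13.5 TPM in CYST, 10.5, 5.76 and 7.06 TPM in MAT and 18.1, 11.8 and 7.35 TPM in MAT + COL (edgeR Log2FC in MAT minus CYST -2.32, adjusted p = 0.0653, and 0.0135 with the block). For GPX8, the gene with the smaller p of the 2 other GPX genes tested, the edgeR Log2FC was -1.05 (SE 0.65, adjusted p = 0.411), beside the stromal median of -0.65, whose part in it was not tested.

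**Figure D5:**
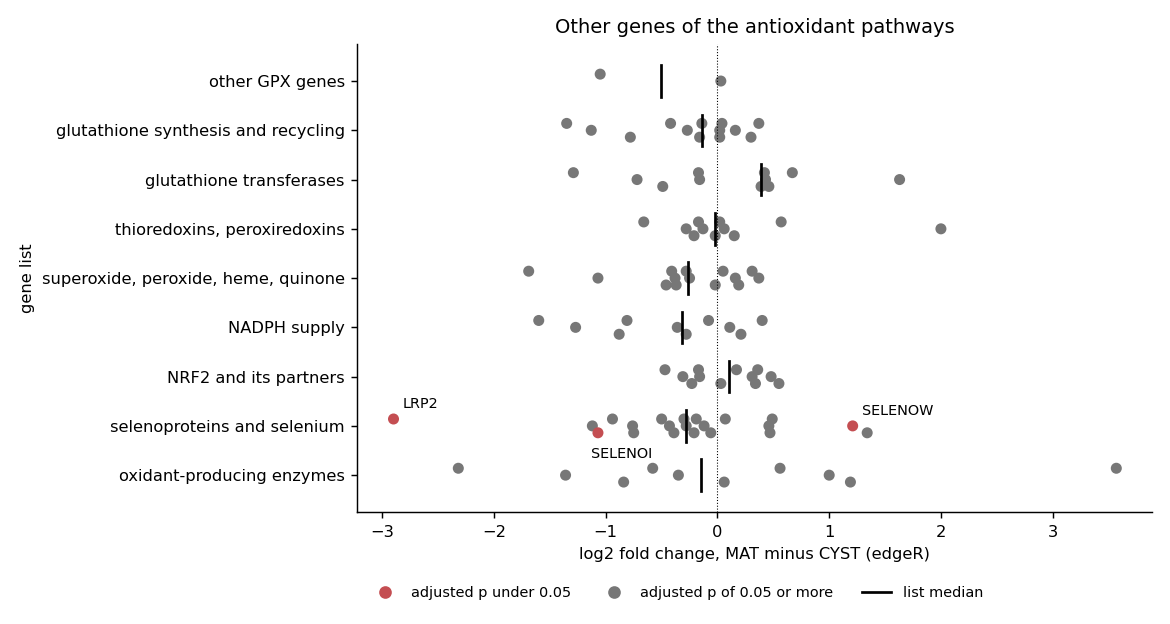
edgeR log2 fold change in MAT minus CYST of the tested genes of the 9 related lists. Each point is a gene, lines are list medians and red marks an adjusted p under 0.05. LRP2 and SELENOI lie below 0 and SELENOW above, and list medians run from -0.51 to 0.39.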

How the data were processed

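RNA-seq was analysed from 9 libraries of bovine uterine gland fragments, 3 each of CYST, MAT and MAT + COL, grouped by the sample labels. Reads had been trimmed by the authors and aligned with CLC Genomics Workbench, at its default settings, to ARS-UCD2.0. The deposited counts are reads per gene, not normalized. The authors deposited a second table with the TPM of these genes. The annotation release and the strand setting of the counting are not given in the sources used here.

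Gene symbols were those of the tables, except where a gene was matched by position. Positions were compared with RefSeq genes of the same assembly. Of 17252 genes named in both, 17208 (99.7%) overlapped on the same chromosome by any length. Both ends lay within 1000 bases for 10142 of the 17252 (58.8%). A listed symbol absent from the tables was matched to a gene that shared at least 50% of the longer span. SOD2 was matched in this way, as were GSTM2 (72.6%) and SOD1 (94.8%) of the related lists. No sequences were used here.

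Counts were tested in R 4.3.3 with edgeR 4.0.16: filterByExpr by group (minimum count 10), TMM, and the quasi-likelihood test (glmQLFit, glmQLFTest). Each comparison used its own 6 libraries. P-values were adjusted over all genes tested by Benjamini and Hochberg's method, with a threshold of 0.05. Intervals are 95%. Correlations and shares of the sum of squares used log2 CPM (TMM over 9 libraries, prior count 2). The members and lists were chosen with earlier results of these data known. Named genes were all 10 members; from each related list the largest 2 called genes in MAT minus CYST or, where none was called, the gene with the smallest p; and the 3 genes most correlated with GPX3 and with SLC7A11. All other genes given by name, such as the remaining GPX genes and further genes called in a list, were chosen after their values were seen.

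Replicate numbers were checked for pairing. Across genes, how far a library lay from its group mean correlated between libraries of the same number at 0.329, 0.437 and 0.396 (MAT and CYST), 0.471, 0.613 and 0.687 (MAT + COL and MAT) and 0.278, 0.350 and 0.347 (MAT + COL and CYST), all above 0.1. Libraries of different numbers gave -0.524 to 0.111. The highest of these, MAT + COL library 1 with CYST library 2, was also above 0.1, but below every value for the same number. The number was therefore taken to pair the libraries and entered an alternative fit as a block. The other alternatives were DESeq2 1.42.0, RLE size factors, no filter on low counts, all 9 libraries in the fit, limma 3.58.1 on log2(TPM + 1) and log2(TPM + 0.1), and leaving out each library. The tests were tested on simulated data. Reads without molecular identifiers are not independent molecules. Plots used matplotlib 3.10.9 (Python 3.11.15).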

Additional observations from a re-analysis of the deposited data

How the results depend on the processing

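With 3 libraries a group, p-values turned on single libraries more than fold changes did. In MAT minus CYST the count of called genes, 216, became 1238 with DESeq2, 1277 with the replicate block and 580 with all 9 libraries in the fit, and 5 to 267 when 1 library was left out. The lowest of these came without CYST library 2 (5), CYST library 1 (7), MAT library 1 (9), MAT library 2 (32) and MAT library 3 (122). In MAT + COL minus CYST the count, 186, became 1427 with DESeq2, 658 with the replicate block and 601 with all 9 libraries, and 3 to 186 when 1 library was left out: 3 without MAT + COL library 2, 4 without CYST library 2, 6 without MAT + COL library 1, 7 without CYST library 1 and 112 without CYST library 3. RLE size factors, no filter and limma on TPM gave 202 to 293 and 167 to 198. In MAT + COL minus MAT, all 13 alternatives gave 0. The pairing by replicate number changed no call of the 10 genes. The cause of these differences was not tested.

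The Log2FC of GPX3 ran from 2.31 to 2.57 in MAT minus CYST and from 2.40 to 2.69 in MAT + COL minus CYST when 1 library was left out. Of 128 alternative values of the 10 genes in each comparison, 113, 113 and 111 kept direction and side of the threshold and 14, 15 and 13 turned sign, all of them of genes not called (order: MAT minus CYST, MAT + COL minus MAT, MAT + COL minus CYST). With the replicate block, TXNRD1 turned to -0.02 and -0.13 in the comparisons of MAT and MAT + COL with CYST, HMOX1 to 0.11 in MAT + COL minus MAT, and SOD2 to 0.07 in MAT + COL minus CYST. With limma on log2(TPM + 1) and log2(TPM + 0.1), GPX1 was 0.00 and 0.00 in MAT minus CYST, and in MAT + COL minus MAT SOD2 was 0.02 and 0.02 and HMOX1 0.19 and 0.20. With the same 2 settings in MAT + COL minus CYST, TXNRD1 was -0.04 and -0.05, GCLC 0.02 and 0.03 and SOD2 0.13 and 0.13. Leaving out 1 library gave in MAT minus CYST -0.25 to 0.28 for GPX1, -0.50 to 0.10 for GPX2, -0.48 to 0.49 for TXNRD1, -0.48 to 0.33 for GCLM, -0.18 to 0.55 for SLC7A11 and -0.28 to 0.54 for SOD2. It gave in MAT + COL minus MAT -0.70 to 0.23 for GPX2, -0.03 to 0.25 for GPX3, -0.79 to 0.53 for TXNRD1, -0.35 to 0.23 for SOD2 and -0.42 to 0.74 for HMOX1, and in MAT + COL minus CYST -0.62 to 0.38 for TXNRD1, -0.16 to 0.06 for GCLC and -0.21 to 0.45 for SOD2. SLC7A11 did not pass the TPM filter of the limma fits and has no value there.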
